A study of Mus musculus with 3 samples.

Results

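The genes examined were the 7 that carry cystine into the cell and turn it into glutathione, or that recycle and spend glutathione: Slc7a11, Slc3a2, Gclc, Gclm, Gss, Gsr and Gpx4. They were chosen by pathway, with levels of these libraries by stage and genotype already known, so those levels are a description and no support for the choice. They were taken by symbol from the 32285 genes of single-cell RNA count tables of mouse thymus, and each of the 7 was present. Levels were read in cells with at least 500 genes and under 10% mitochondrial counts, which were 23864 of 25077 cell barcodes. There were 3 libraries, each from the thymus of female mouse at 4 weeks of age with a germline change of p53, and 1 library stood for each genotype: p53 +/-, p53 AD/- and p53 -/-. Every genotype therefore carried at least 1 p53-null allele. The labels leave the AD allele unexplained, though p53 dimers are named in the series title. The design text calls the first group WT, whereas its sample label gives p53 +/-, and the label was followed. The background strain is given as 50% BALB/C with 50% C57BL6, C57BL7 and C57BL8 in the order of genotypes above. The labels do not say how many mice were pooled. In what follows, values are listed in the order p53+/-, p53 AD/- and p53-/- unless another order is given.

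Cells build glutathione, their main small thiol, from cysteine, which arrives largely as its oxidised dimer cystine. Slc7a11 (xCT) is the cystine-for-glutamate exchange subunit and is held at the membrane by Slc3a2 (CD98 heavy chain), which also carries other amino acid transporters. Gclc and Gclm are the catalytic and modifier subunits of glutamate-cysteine ligase, the first and rate-limiting step, and Gss adds the glycine. Gsr returns oxidised glutathione to its reduced form with NADPH, and Gpx4 spends glutathione to clear lipid peroxides, the step whose loss leads to ferroptosis. Slc7a11 is known as a gene that p53 represses, and both the ATF4 and the NRF2 stress pathways can raise it. Thymocytes pass from CD4-negative CD8-negative (DN) cells through a burst of division to resting CD4-positive CD8-positive (DP) cells, which rearrange the T cell receptor alpha chain, and after selection become CD4 or CD8 single-positive (SP) cells.

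The promoter of Slc7a11 is shown because the gene was set apart by stage from most of the other ATF4 targets described further on, and that of Gclm because this gene had the opposite stage pattern. Both are RefSeq windows on build GRCm38.p6, running from 250 bases before the transcript start to 50 after it. They are written 5′ to 3′ on the gene's own strand. Capitals mark the ATF4 element core TGATGNAA in the first and the antioxidant response element core TGACNNNGC in the second, either strand counted.
Slc7a11, chr3:50443564-50443863, minus strand: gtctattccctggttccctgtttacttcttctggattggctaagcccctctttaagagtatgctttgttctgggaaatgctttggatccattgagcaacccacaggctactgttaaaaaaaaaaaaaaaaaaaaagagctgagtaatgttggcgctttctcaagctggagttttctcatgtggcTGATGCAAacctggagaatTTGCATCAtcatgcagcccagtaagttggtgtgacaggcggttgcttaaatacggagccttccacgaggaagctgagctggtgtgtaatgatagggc
Gclm, chr3:122245307-122245606, plus strand: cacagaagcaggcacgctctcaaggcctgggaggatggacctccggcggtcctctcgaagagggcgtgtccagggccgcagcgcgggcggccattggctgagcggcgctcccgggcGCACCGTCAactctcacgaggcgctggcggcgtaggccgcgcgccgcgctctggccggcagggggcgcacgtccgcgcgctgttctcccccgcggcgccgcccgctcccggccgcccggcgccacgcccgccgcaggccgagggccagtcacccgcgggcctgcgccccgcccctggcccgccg
The Slc7a11 window held 2 matches to the ATF4 core, in opposite orientation and beginning 66 and 47 bases before the start. Of 32841 RefSeq promoter windows of this length, 3.97% held at least 1 match and 23 windows, or 0.0700%, held at least 2. The Gclm window held 1 match to the antioxidant core, beginning 134 bases before the start, and 12.4% of windows held at least 1. Windows were matched for 5 of the 7 genes, the others being those of Slc3a2, Gss and Gpx4 (4 starts), in which neither core was found. A match is a run of letters and is no evidence that a factor binds there.

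Cells were clustered without the 7 genes among the genes used, and clusters were named from marker lists. Quiescent DP-like cells, led by Rag1, Cd8b1 and Arpp21, were 4215, 3169 and 4429 cells. Cycling cells, led by Top2a, Hmgb2 and Pclaf, were 1155, 865 and 1782. Selected DP and early SP-like cells (Tox, Cd5, Itm2a) were 2071, 1571 and 2224, mature SP-like cells (Klf2, Ms4a4b, H2-K1) 484, 390 and 717, and DN-like cells (Il2ra, Hes1) 94, 52 and 147. A class led by MHC class II genes held 93, 100 and 216 cells. Counts are unique molecular identifiers (UMIs), each standing for 1 captured RNA molecule, summed per library and class and scaled to the total UMIs of that class as CPM, the usual unit for sequencing depth. Intervals are exact 95% Poisson intervals for a level and exact conditional binomial intervals for a ratio. They cover counting error only, because 1 library per genotype gives no replicate, and for that reason no p-value or test stands in the text. A ratio is called past a fold of 1.5 in either direction.

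The p53 AD/- library stood apart in RNA make-up, and this touches each comparison with it. In quiescent DP-like cells the median UMIs per cell were 2694, 1945 and 2257, and the median share of the nuclear RNA Malat1 was 6.13%, 3.75% and 7.43%. Cells with under 1% Malat1 made up 0.498%, 19.9% and 0.429% of the class. The largest cluster within the class also differed, being cluster 3 with 44.2% of the p53+/- cells, cluster 1 with 58.8% of the p53 AD/- cells and cluster 8 with 56.5% of the p53-/- cells. Summed markers of red cells in the class were 461, 13.9 and 106 CPM. Macrophage markers were 48.5, 93.3 and 84.0 CPM and cycling markers 251, 191 and 333 CPM. The part of these differences in the gene levels below was not tested, other than by matching cells on Malat1. Trp53 itself stood at 57.7, 70.0 and 44.1 CPM in quiescent DP-like cells. Nothing in the labels tells what the null allele lacks of the gene, so its presence in the p53-/- library checks the label little. Between 36 and 50 barcodes of each library were also found in another, and Scrublet called 1 doublet in all, so doublets remain among the cells.

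**Figure D1:**
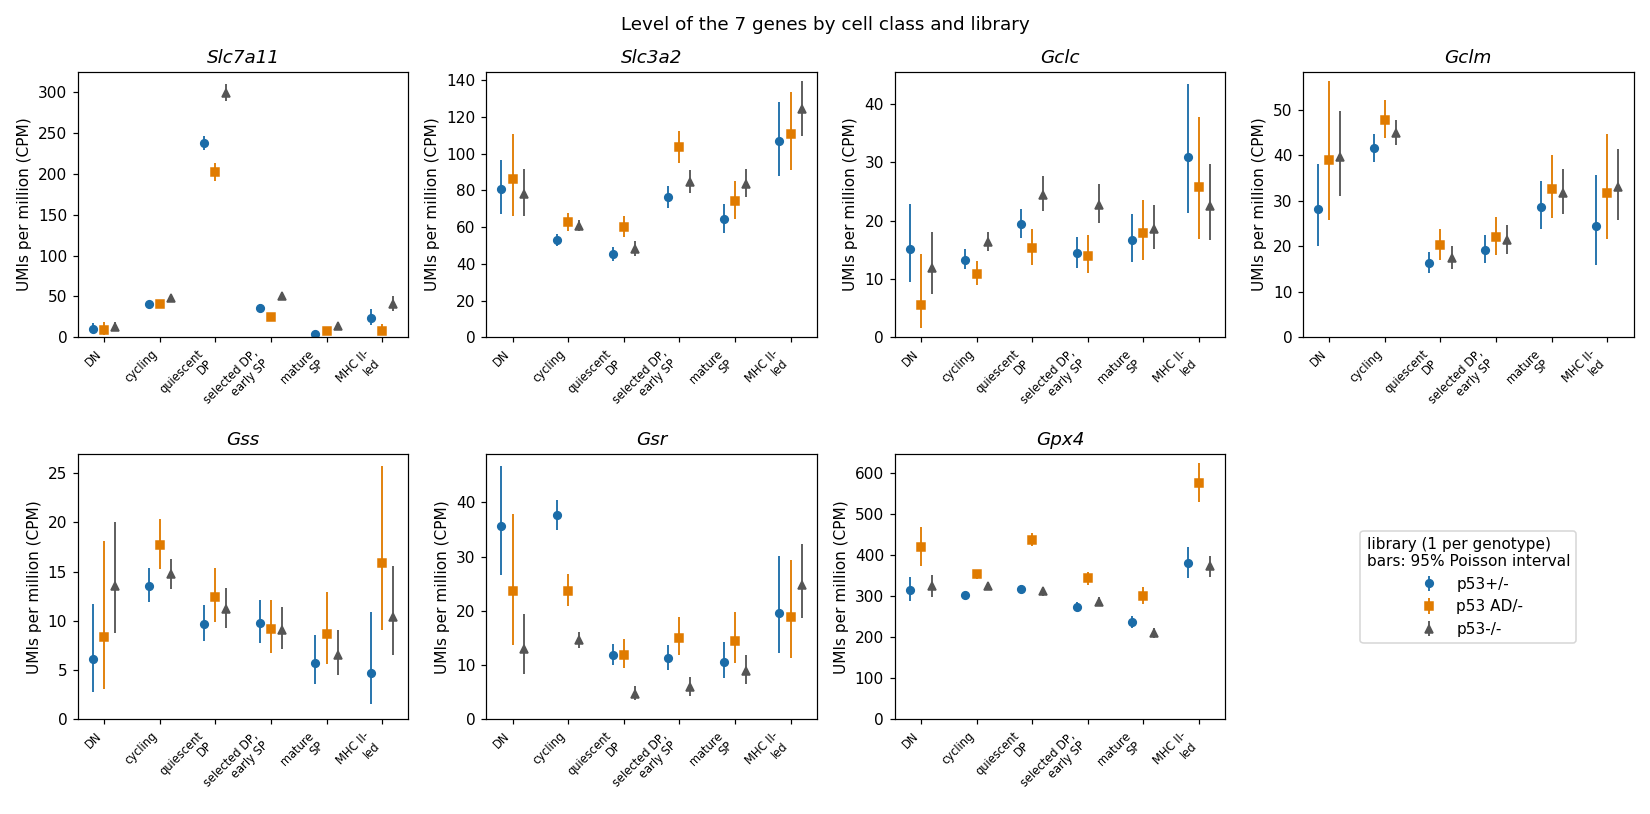
Level in CPM (y axis, linear, from 0) of each of the 7 genes in 6 cell classes (x axis) and 3 libraries (colour and symbol); bars are exact 95% Poisson intervals. Slc7a11 stands at 203 to 299 CPM in quiescent DP-like cells and below 50 CPM in each other class, whereas Gclm is highest in cycling cells.

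Slc7a11, the cystine exchanger subunit, was a gene of resting DP cells in these libraries. Its level in quiescent DP-like cells stood at 238 CPM in p53+/- (2910 UMIs, interval 230 to 247), at 203 CPM in p53 AD/- (1355 UMIs, 192 to 214) and at 299 CPM in p53-/- (3280 UMIs, 289 to 310). The cycling class had 40.2, 41.3 and 48.5 CPM, and selected cells 36.0, 24.8 and 49.9 CPM. The DN-like class had 10.3, 8.34 and 11.9 CPM and the mature SP-like class 4.21, 7.62 and 13.2 CPM. The quiescent DP-like range lay above that of every other class, while neighbouring classes further down the order overlapped between libraries. The log2 ratio to quiescent DP-like cells of the same library was -2.57, -2.29 and -2.63 in cycling cells and -2.73, -3.03 and -2.59 in selected cells. It was -4.53, -4.60 and -4.65 in DN-like cells and -5.82, -4.73 and -4.50 in mature SP-like cells, so the gene was low before the DP stage, high in it and low again after it.

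Counted per cell, 39.6%, 28.8% and 41.0% of quiescent DP-like cells had a Slc7a11 UMI. With each cell thinned to 1000 UMIs the shares were 19.5% (18.3 to 20.7), 16.9% (15.6 to 18.3) and 22.7% (21.4 to 23.9). In mature SP-like cells thinned likewise they were 0.621%, 0.513% and 1.26%, at median depths before thinning of 7187, 5570.5 and 6224 UMIs. A quiescent DP-like cluster of the same library was 61.3, 41.4 and 24.5 times higher than the mature SP-like class and 25.1, 37.9 and 27.0 times higher than the DN-like class, and no expression was read from these low counts. Set against Rag1, a recombinase gene of DP cells, Slc7a11 had 10.1, 10.4 and 12.6 UMIs per 100 Rag1 UMIs in quiescent DP-like cells and 8.37, 10.1 and 14.1 in mature SP-like cells. The ratio was 12.3, 15.7 and 15.1 in cycling cells and 14.1, 11.7 and 19.2 in selected cells. In DN-like cells, which have Rag1 of their own, the ratio was 2.87, 4.48 and 3.94. Rag1 itself stood at 50.3, 75.1 and 93.6 CPM in mature SP-like cells against 2363, 1942 and 2377 CPM in quiescent DP-like cells. The part of RNA released by DP cells in the counts of the other classes, cycling and selected cells included, was not tested.

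Within the cycling and the selected class the Slc7a11 level also differed between clusters, and the same cluster was highest in each library. Among cycling cells, cluster 14, led by Ube2c, Cenpa, Cenpf and Ccnb2 of late division, had 133, 140 and 150 CPM. Cluster 6, led by Top2a and histone genes, had 36.0, 37.2 and 47.7 CPM, and cluster 13, led by Pcna and Dut of DNA replication, had 21.2, 18.9 and 23.9 CPM. Among selected cells, cluster 2, led by Tox, Ccr9 and Cd5, had 88.5, 64.7 and 125 CPM, and clusters 4, 5 and 9 lay between 4.87 and 20.5 CPM. Within the cycling cells the level was thus higher in late division than in replication in all 3 libraries. The genes most like Slc7a11 over 18 class-by-library sums were Bnip2 (Pearson r = 0.947), Camkk1 (0.942) and Plekhf2 (0.933) among 8995 genes, a description in which the points share libraries.

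Between genotypes, Slc7a11 in quiescent DP-like cells was lowest in p53 AD/- and highest in p53-/-, and none of the 3 differences reached a fold of 1.5. The log2 ratio was 0.33 (0.26 to 0.40) for p53-/- over p53+/- and -0.23 (-0.33 to -0.14) when p53 AD/- was set over p53+/-. Set over p53-/- it was -0.56 (-0.66 to -0.47). The pairs share libraries and are not independent. Clusters of the class are parts of the same libraries and no replicates. Within them the p53-/- over p53+/- ratio was positive in 4 of 4, at 0.32 to 0.34. Its interval in cluster 0 took in 0 (-0.01 to 0.64). The p53 AD/- library was below p53-/- in 4 of 4, at -0.69 to -0.27. The p53 AD/- over p53+/- ratio was negative in 3 of 5 clusters and ranged from -0.35 to 0.40, the latter from 11 against 24 UMIs. In cells matched on Malat1 and in the other alternatives all 3 ratios kept their sign in the class as a whole. The p53 AD/- over p53-/- ratio passed the fold in 4 of 13 alternatives, reaching -0.62. Of all genes with at least 30 UMIs over the pair, 81.7% had a lower p53-/- over p53+/- ratio than Slc7a11, so it lay in the upper part of the general spread and not at its edge.

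Cycling and selected cells gave the same order for p53-/- against p53+/-. The ratio was 0.27 (0.14 to 0.41) in cycling cells and 0.47 (0.25 to 0.69) in selected cells. In mature SP-like cells, from whose low counts no expression was read, it was 1.65 (0.87 to 2.504, 71 against 17 UMIs). Rag1 in the mature SP-like cells also differed, at 93.6 against 50.3 CPM, and its part in the Slc7a11 ratio was not tested. For p53 AD/- over p53-/- the ratio was -0.23 (-0.39 to -0.08) in cycling cells and -1.01 (-1.30 to -0.72) in selected cells. In cycling cells p53 AD/- and p53+/- were not told apart by counting error, with a ratio of 0.04 (-0.13 to 0.21). The p53 AD/- over p53+/- ratio was -0.54 (-0.84 to -0.24) in selected cells. In the low counts of mature SP-like cells it was 0.86 (-0.14 to 1.87, 21 against 17 UMIs). The counts of the antisense gene Gm37854, which lies within the Slc7a11 locus (chromosome 3, 49892526 to 50443614, GRCm38), were 4 UMIs against 11066 of Slc7a11 over all cells.

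**Figure D2:**
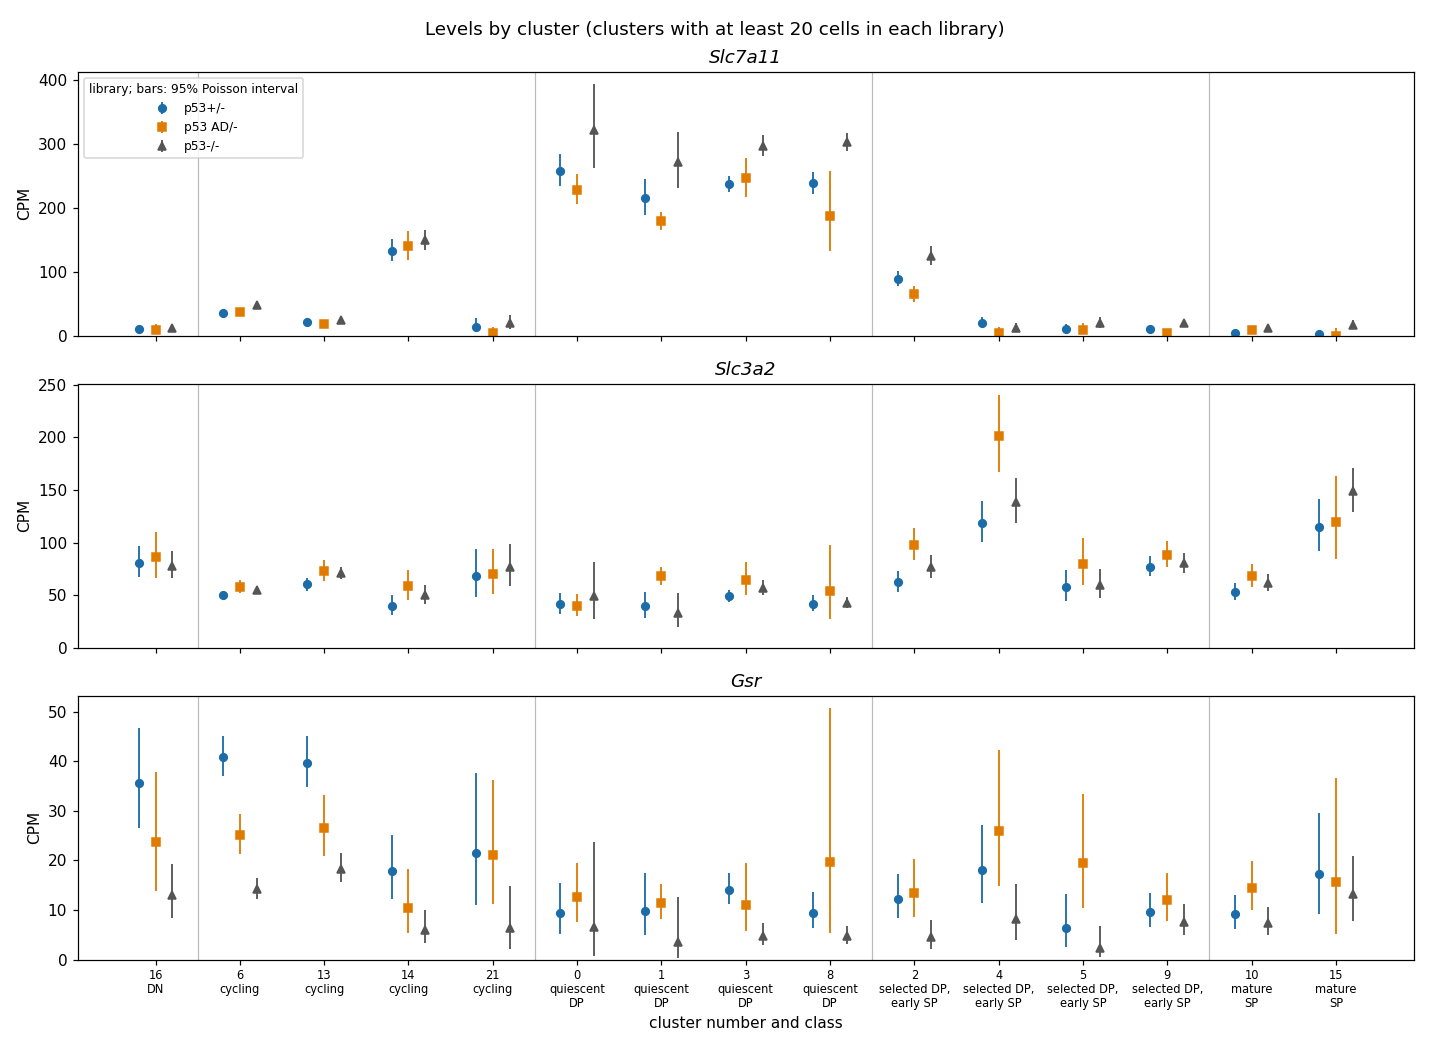
Level in CPM (y axes, from 0) of Slc7a11, Slc3a2 and Gsr in the thymocyte clusters with at least 20 cells in each library (x axis, cluster number and class); bars are exact 95% Poisson intervals. Slc7a11 exceeds 170 CPM in the 4 quiescent DP-like clusters shown, next highest in cycling cluster 14, and Gsr is lowest in p53-/- in each cluster shown. In quiescent DP-like cluster 1 the p53-/- level of Gsr rests on 2 UMIs.

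Slc3a2, the heavy chain that Slc7a11 needs at the membrane, was lowest in quiescent DP-like cells, where Slc7a11 was highest, though its range there met that of cycling cells. Quiescent DP-like cells had 45.5 CPM (41.8 to 49.4), 60.1 CPM (54.4 to 66.3) and 48.2 CPM (44.2 to 52.5). The level was 52.7, 62.7 and 60.7 CPM in the cycling class, a log2 ratio of 0.06 in p53 AD/- that took either sign over the alternatives, and 64.2, 74.1 and 83.8 CPM in the mature SP-like one. It was 80.9, 86.2 and 78.1 CPM before the DP stage, in the DN-like class, and 76.3, 104 and 84.6 CPM after selection. The MHC class II-led cells were highest at 107, 111 and 124 CPM. Selected cells exceeded quiescent DP-like cells by a log2 ratio of 0.75, 0.78 and 0.81. Within them cluster 4, led by Cd5, Ikzf2 and Tox, had 119, 201 and 139 CPM. Over the 18 class-by-library sums the r of Slc7a11 with Slc3a2 was -0.538.

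Slc3a2 was higher in p53 AD/- than in p53+/- in quiescent DP-like cells, with a log2 ratio of 0.40 (0.21 to 0.59), and in selected cells, with 0.44 (0.27 to 0.61). Against p53-/- the p53 AD/- ratio in quiescent DP-like cells was 0.32 (0.13 to 0.51). In cells matched on Malat1 it was -0.02. For p53-/- over p53+/- the ratio was 0.08 (-0.09 to 0.26), within counting error. Of the 5 other light chains that can pair with Slc3a2, 2 were measured in these cells, and Slc7a6, an exporter of basic amino acids, stood at 14.5, 16.0 and 15.2 CPM in quiescent DP-like cells. Slc7a5, the leucine carrier and outside the rule for named genes, was chosen after its values were seen. It had 2.38, 1.35 and 1.92 CPM in quiescent DP-like cells against 16.4, 8.34 and 16.3 CPM in DN-like cells, and Slc7a10 had no UMI in the thymocyte classes.

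**Figure D3:**
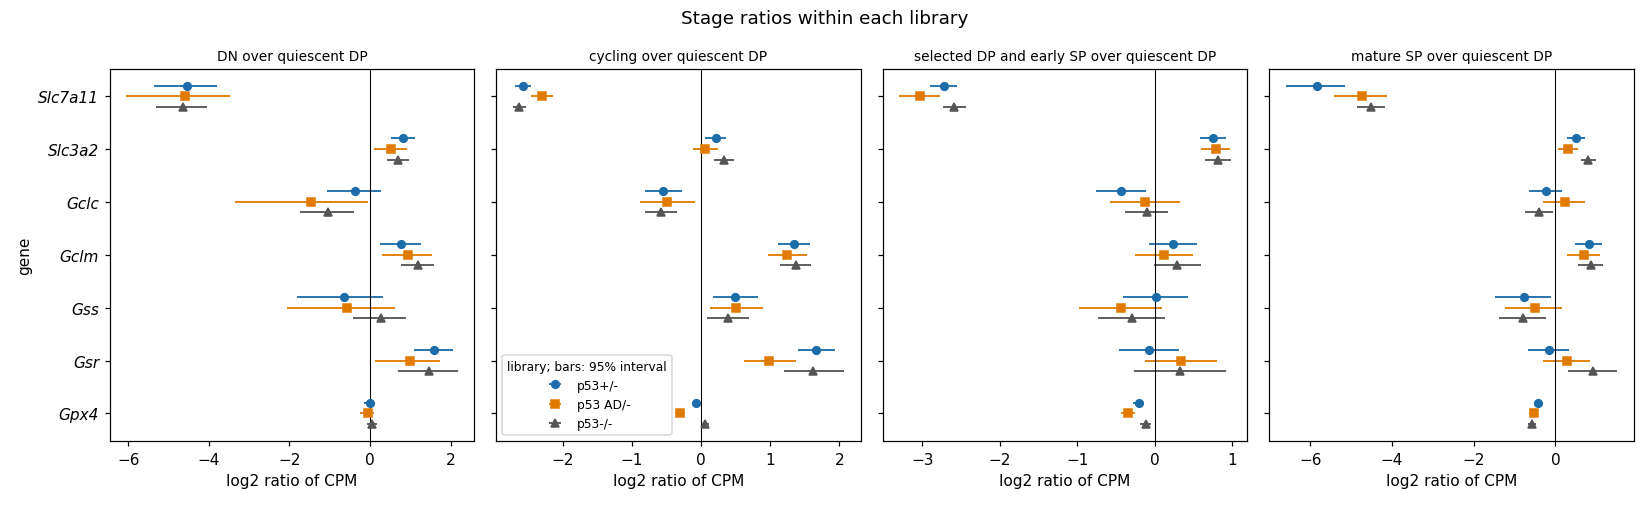
Log2 ratio of CPM (x axes) of each of the 7 genes (y axis) in DN-like, cycling, selected and mature SP-like cells over quiescent DP-like cells of the same library; colours are libraries and bars are exact 95% intervals. Slc7a11 is below -2 in every panel and library, Gclm is above 1.2 in cycling cells, and Gpx4 stays between -0.6 and 0.1.

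The subunits of glutamate-cysteine ligase did not move together over the stages. Gclm, the modifier subunit, was highest in cycling cells, at 41.5 CPM (751 UMIs), 47.9 CPM (523 UMIs) and 44.97 CPM (1124 UMIs), and lowest in quiescent DP-like cells, whose range met that of selected cells, at 16.4, 20.2 and 17.4 CPM. The log2 ratio of cycling to quiescent DP-like cells was 1.34 (1.11 to 1.57), 1.25 (0.97 to 1.53) and 1.37 (1.14 to 1.60). DN-like cells had 28.1, 38.9 and 39.6 CPM and mature SP-like cells 28.7, 32.7 and 31.8 CPM, again above the resting DP cells in each library. The genes most like Gclm over the class-by-library sums were Tuba1b, a tubulin (r = 0.953), E2f1, a cell cycle transcription factor (0.950), and Nrm (0.949). Within cycling cells the late-division cluster 14 had less Gclm, 26.1, 25.3 and 27.6 CPM, than cluster 13, with 41.8, 50.9 and 47.5 CPM.

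Gclc, the catalytic subunit, had 19.4, 15.3 and 24.5 CPM in quiescent DP-like cells and 13.3, 10.9 and 16.4 CPM in cycling cells. Its cycling to quiescent log2 ratio was -0.54, -0.49 and -0.58 in CPM, but -0.06, 0.03 and -0.01 after TMM scaling. In p53 AD/- it ran from -1.35 to 0.03 over the alternatives, and no direction is given. In quiescent DP-like cells Gclc was ordered between genotypes like Slc7a11, and p53 AD/- was below p53-/- by a log2 ratio of -0.68 (-1.03 to -0.35, 102 against 268 UMIs), past the fold of 1.5. That call was lost in 7 of 13 alternatives, with ratios of -0.58 to -0.54. The p53-/- over p53+/- ratio was 0.33 (0.08 to 0.59), and 0.66 (0.32 to 1.003) in selected cells. Gclm differed less between genotypes. Its ratios in quiescent DP-like cells were 0.30 (-0.02 to 0.62) for p53 AD/- over p53+/-, 0.09 (-0.20 to 0.38) for p53-/- over p53+/- and 0.21 (-0.12 to 0.54) for p53 AD/- over p53-/-. Gm17494, an antisense gene that overlaps Gclm, had 679 UMIs beside the 4041 of Gclm.

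Gss, the second enzyme of synthesis, was low in every class. It had 9.66, 12.4 and 11.2 CPM in quiescent DP-like cells, 13.6, 17.7 and 14.7 CPM in cycling cells and 5.70, 8.71 and 6.50 CPM in mature SP-like cells. In DN-like cells it had 6.17, 8.34 and 13.56 CPM, and in p53-/- the log2 ratio to cycling cells was -0.12 (-0.77 to 0.47), within counting error. The cycling range lay above that of each other thymocyte class, though narrowly for DN-like cells. The log2 ratio of cycling to quiescent DP-like cells was 0.49, 0.51 and 0.39. Its genotype ratios in quiescent DP-like cells, 0.36 (-0.06 to 0.78), 0.22 (-0.16 to 0.59) and 0.14 (-0.27 to 0.56) for p53 AD/- over p53+/-, p53-/- over p53+/- and p53 AD/- over p53-/-, were within counting error. Gss overlaps Acss2 on the other strand, which had 1995 UMIs beside 1503 of Gss, and strand use in the counting is not stated.

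Gsr, glutathione reductase, showed the largest genotype difference of the 7 genes within quiescent DP-like cells. Quiescent DP-like cells of p53+/- had 11.9 CPM (145 UMIs, interval 10.02 to 13.97), those of p53 AD/- had 12.0 CPM (80 UMIs, 9.49 to 14.9) and those of p53-/- had 4.75 CPM (52 UMIs, 3.55 to 6.22). The cycling class had 37.6, 23.7 and 14.6 CPM from 680, 259 and 365 UMIs, and the DN-like class 35.6, 23.6 and 13.02 CPM. After selection the level was 11.3, 15.1 and 5.96 CPM, and in the mature SP-like class it was 10.7, 14.5 and 8.92 CPM. The p53-/- library was thus lowest in all 5 thymocyte classes. In the MHC class II-led cells it was not, at 19.7, 18.8 and 24.8 CPM with overlapping intervals. The make-up of that class differed between libraries, with summed granulocyte markers of 6993, 2689 and 37101 CPM. In p53-/- this sum exceeded the 18385 CPM of the dendritic cell and MHC class II markers. The part of this make-up in the Gsr levels of the class was not tested.

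The log2 ratio of Gsr for p53-/- over p53+/- was -1.32 (-1.81 to -0.86) in quiescent DP-like cells, -1.36 (-1.55 to -1.18) in cycling cells, -1.45 (-2.22 to -0.73) in DN-like cells and -0.92 (-1.45 to -0.41) in selected cells. In mature SP-like cells it was -0.26 (-0.88 to 0.37). For quiescent DP-like cells the ratio stayed between -1.47 and -1.28 over the alternatives run. Of 11170 genes measured there, 39 had a lower ratio. Among 7570 genes with enough UMIs in all 5 classes, 27 genes, or 0.357%, were past a fold of 1.5 lower in at least 4 of the 5. Beside Gsr, these included 8 histone genes, the ribosomal RNA-associated loci Gm42418 and AY036118, and Gstp1, a glutathione S-transferase. Whether they share a source with Gsr was not tested.

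The 8 other genes within 1 Mb of Gsr (chromosome 8, 33652523 to 33698163, GRCm38) with at least 100 UMIs over the pair had p53-/- over p53+/- ratios between -0.11 and 0.25 in quiescent DP-like cells. None of them was past the fold. Against p53-/-, p53 AD/- was higher in Gsr by 1.33 (0.81 to 1.87) in quiescent DP-like and 0.70 (0.46 to 0.93) in cycling cells. Against p53+/-, p53 AD/- had a ratio of 0.01 (-0.40 to 0.41) in quiescent DP-like cells and -0.66 (-0.88 to -0.46) in cycling cells, a difference between stages that was not tested. In cycling over quiescent DP-like cells the Gsr ratio was past the fold in each library, at 1.66, 0.99 and 1.62, except that it was 0.55 in p53 AD/- with cells thinned to 1000 UMIs. Within cycling cells the late-division cluster 14 had 17.8, 10.5 and 6.09 CPM against 39.6, 26.5 and 18.4 CPM in cluster 13, and the genotype order held in both.

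**Figure D4:**
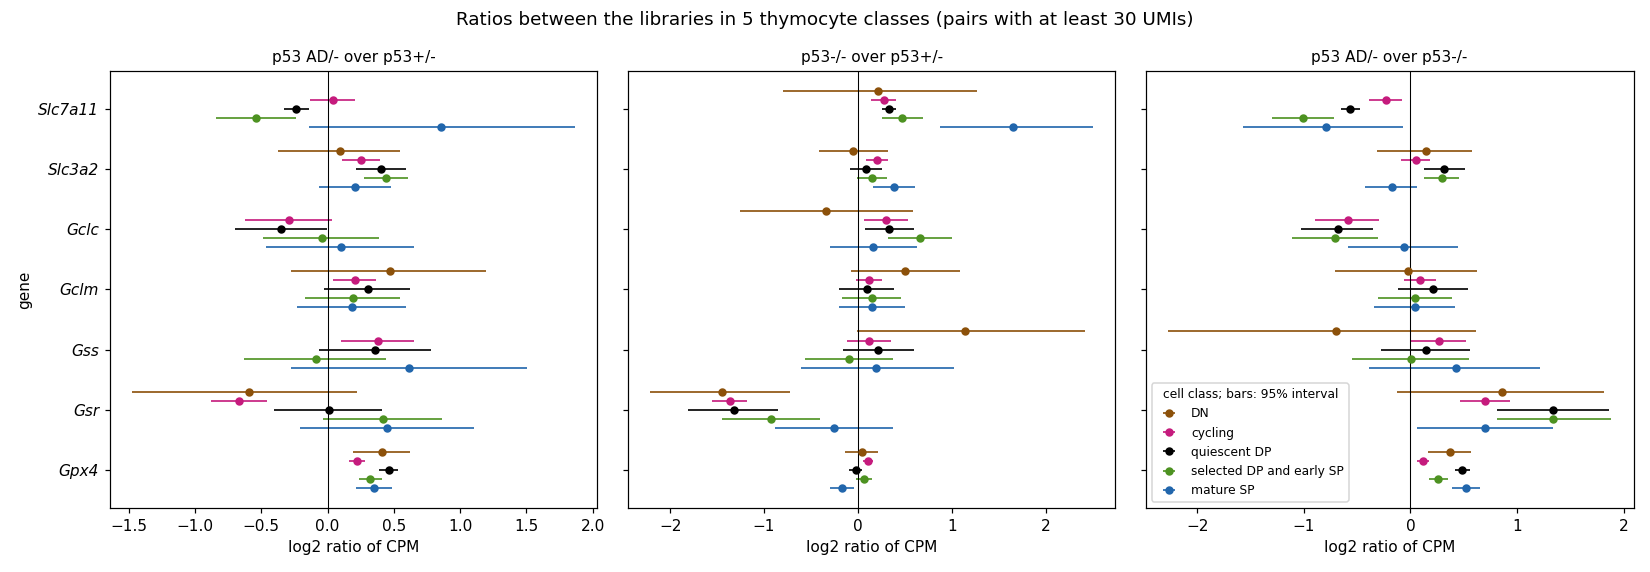
Log2 ratio of CPM (x axes) between the libraries for each of the 7 genes (y axis) in 5 thymocyte classes (colours), for pairs with at least 30 UMIs; bars are exact 95% intervals. The middle panel shows Gsr below 0 in p53-/- over p53+/- in all 5 classes, and the left panel shows Gpx4 above 0 in p53 AD/- over p53+/- in all 5.

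Gpx4, the peroxidase that spends glutathione on lipid peroxides, varied little between stages. Quiescent DP-like cells had 317, 437 and 312 CPM, cycling cells 303, 353 and 326 CPM, and the DN-like class 315, 418 and 324 CPM. Mature SP-like cells were lowest, at 236, 301 and 210 CPM, with log2 ratios to quiescent DP-like cells of -0.42, -0.54 and -0.57. The MHC class II-led cells had the highest level in each library, at 380, 575 and 372 CPM. The p53 AD/- library was highest in all 5 thymocyte classes and in the MHC class II-led cells. In quiescent DP-like cells its ratio was 0.46 (0.39 to 0.53) over p53+/- and 0.49 (0.42 to 0.56) over p53-/-, both short of the fold of 1.5, which the latter passed at 0.61 with TMM and 0.63 with median-of-ratios factors. Among all genes there, 88.7% and 90.0% had lower ratios. In the clusters of the class the p53 AD/- over p53+/- ratio lay between 0.04 and 0.47. The p53 AD/- over p53-/- ratio there lay between -0.02 and 0.47, above 0 in 3 of 4 clusters. For p53-/- over p53+/- the ratio was -0.03 (-0.09 to 0.04). A pseudogene of Gpx4, Gpx4-ps2, could share its reads.

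Counted over the 7 genes, the genotype differences in quiescent DP-like cells were few. For p53 AD/- over p53+/- no gene was past the fold in either direction, where 6.66% of 10718 genes were higher and 14.0% lower. For p53-/- over p53+/- no gene was higher, beside 6.10% of 11170 genes, and 1 gene, Gsr, was lower, beside 3.12%. For p53 AD/- over p53-/- Gsr was higher, beside 6.48% of 10697 genes, and Gclc was lower, beside 21.1%. The median log2 ratio of the 7 genes was 0.30, 0.09 and 0.21 in these pairs, beside -0.04, 0.09 and -0.13 over all genes. For p53-/- over p53+/- the median of the 7 genes thus equalled that of all genes to 2 decimals, and Gsr was the single member past the fold.

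**Figure D5:**
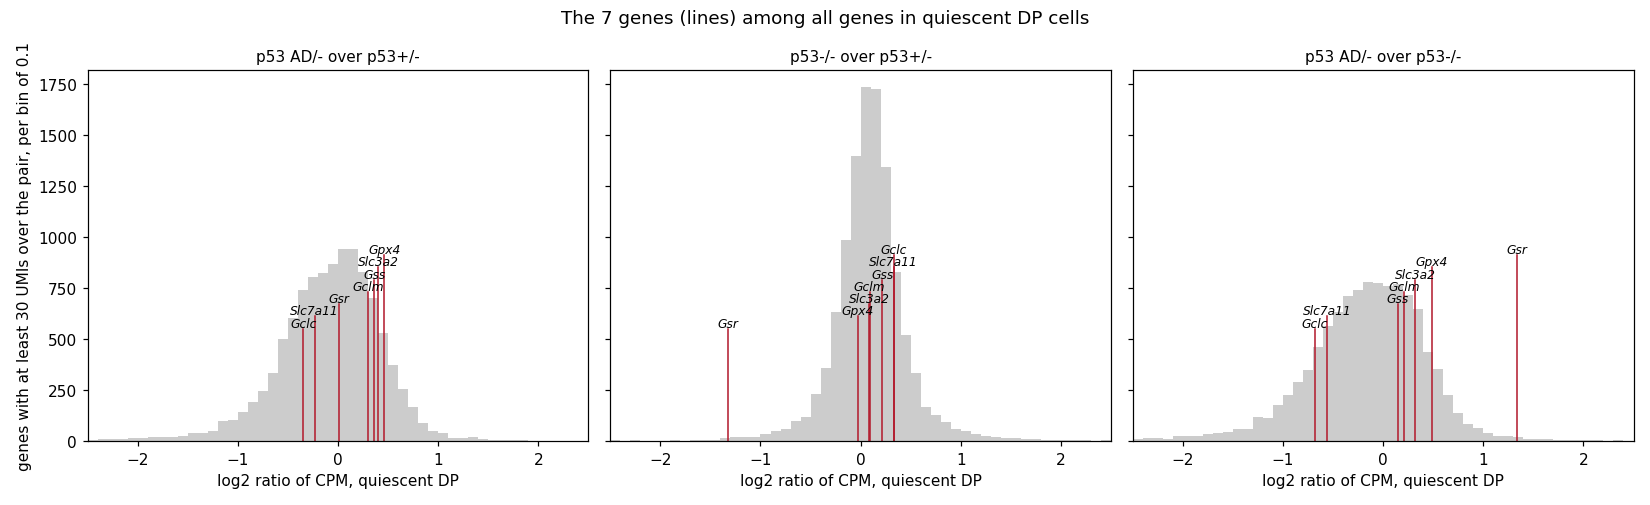
Number of genes (y axis, bins of 0.1) by log2 ratio of CPM between the libraries (x axis) in quiescent DP-like cells, for genes with at least 30 UMIs over the pair; red lines mark the 7 genes and their heights carry no value. In the middle panel Gsr lies at -1.32, apart from the other 6 genes at -0.03 to 0.33.

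Counted over stages, a gene was counted when it passed the fold in the same direction in all 3 libraries. In cycling over quiescent DP-like cells, Gclm and Gsr were higher, 2 of 7 beside 14.4% of all genes, and Slc7a11 was lower, 1 of 7 beside 37.6%. In DN-like cells the same 2 genes were higher, beside 13.3%, and Slc7a11 was lower, beside 26.1%. In selected cells Slc3a2 was higher, beside 7.99%, and Slc7a11 lower, beside 9.62%. In mature SP-like cells Gclm was higher, beside 11.4%, and Slc7a11 lower, beside 29.3%. The median of all genes in cycling over quiescent DP-like cells was itself -0.46, -0.51 and -0.45, and that of the 7 genes was 0.21, 0.06 and 0.33. TMM scaling moved the median of the 7 genes to 0.70, 0.58 and 0.90 and put Slc7a11 at -2.08, -1.78 and -2.06. Over all alternatives the Slc7a11 ratio lay between -2.79 and -1.86 in p53+/-, -2.51 and -1.72 in p53 AD/- and -2.80 and -2.02 in p53-/-.

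Other genes tied to the pathway were read from 10 lists, with members of at least 30 UMIs over the pair. Among regulators of the NRF2 and ATF4 pathways in quiescent DP-like cells, 1 of 9 measured genes was higher in p53 AD/- than in p53-/-, beside 40.6% of all genes. The other 8 were lower, and the median of the list was -0.23 beside -0.13 for all genes. Past the fold lower were 4 of them, Mafk, Bach1, Eif2ak3 and Eif2ak4, beside 21.1% of all genes. No direction of either pathway was read from these counts. Mafk, a small partner of NRF2, had 20.6, 11.1 and 35.0 CPM. Eif2ak3 and Eif2ak4, the PERK and GCN2 kinases upstream of ATF4, had 80.7, 46.5 and 95.7 CPM and 6.31, 3.59 and 6.94 CPM. For p53-/- over p53+/- the list had 6 of 9 higher, beside 63.7% of all genes, with a median of 0.17 beside 0.09. For p53 AD/- over p53+/- it had 3 of 9 higher, beside 46.4%, with a median of -0.40 beside -0.04. Slc7a11, Mafk, Eif2ak3 and Eif2ak4 were thus lowest in p53 AD/-, the library with the lowest Malat1 share. The Slc7a11 ratios kept their sign in cells matched on Malat1. For Mafk, Eif2ak3 and Eif2ak4 the part of Malat1 was not tested.

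Most other ATF4 targets were higher in cycling cells, where Slc7a11 was lower. Of 5, 4 and 5 measured, 4 were past the fold higher in cycling than in quiescent DP-like cells in each library taken alone, with medians of 2.69, 3.03 and 2.90. Of all genes, 14.4% were past it in all 3 libraries at once, a stricter count. Sesn2, named after its values were seen, was past the fold lower in p53+/-, at 1.44 against 2.46 CPM. Phgdh, the first enzyme of serine synthesis, went from 29.2, 42.5 and 32.8 CPM to 188, 255 and 197 CPM, and Shmt2, the mitochondrial serine hydroxymethyltransferase, went from 5.49, 10.5 and 5.75 CPM to 35.3, 44.5 and 42.9 CPM. Mthfd2, which uses its product, went from 5.32, 5.38 and 7.58 to 52.9, 59.97 and 57.9 CPM. In quiescent DP-like cells 4 of 5 of the list were higher in p53 AD/- than in p53+/- (median 0.13), 4 of 5 in p53-/- than in p53+/- (0.16) and 3 of 5 in p53 AD/- than in p53-/- (0.37), beside 46.4%, 63.7% and 40.6% of all genes, with Shmt2 past the fold higher in both comparisons of p53 AD/-. Psat1, another serine enzyme, at 2.62, 2.54 and 4.02 CPM, was past it in both comparisons of p53-/-. Other NRF2 targets had 3, 2 and 3 of 4 higher for p53 AD/- over p53+/-, p53-/- over p53+/- and p53 AD/- over p53-/-, beside the same shares of all genes as above. Blvrb, a flavin reductase, stood at 7.13, 13.9 and 8.49 CPM, past the fold in both comparisons of p53 AD/-, while Txnrd1, thioredoxin reductase, had 53.9, 59.2 and 59.97 CPM and the haem carrier Slc48a1 18.3, 18.7 and 15.3 CPM.

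Of the methionine cycle and transsulfuration list, which makes cysteine from methionine, Mat2a had 122, 133 and 145 CPM and Mtr 21.9, 21.5 and 23.9 CPM in quiescent DP-like cells. For p53 AD/- over p53+/- 1 of 4 measured genes was past the fold, Ahcy, which was higher. For p53-/- over p53+/- it was 1 of 3, Cth, which was lower, and for p53 AD/- over p53-/- 1 of 3, again Ahcy and higher. These are low genes, with Ahcy at 1.15, 3.59 and 1.37 CPM and Cth, the enzyme that releases cysteine, at 1.64, 1.495 and 0.913 CPM. Cbs, the enzyme before it, had 0.819, 0.449 and 0.548 CPM. Ahcy, Cth and Cbs fall outside the rule for named genes and were chosen after their values were seen. Among genes of glutathione breakdown, none of 4 was past the fold for p53 AD/- over p53+/-, Ggt7 of 5 was higher for p53-/- over p53+/-, and Chac2 of 4 was higher for p53 AD/- over p53-/-, by a log2 ratio of 1.01. Chac2 had 7.13, 10.5 and 5.203 CPM, Cndp2 11.5, 14.95 and 13.1 CPM and Ggct 5.81, 4.93 and 5.11 CPM. Of the NADPH suppliers that Gsr depends on, none of 8 was past the fold in any pair. Idh2 had 122, 160 and 127 CPM, Nadk 32.2, 43.4 and 46.5 CPM, and Me2 49.4, 57.6 and 59.97 CPM.

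Around Gpx4, none of 8 genes of selenoprotein synthesis or of small selenoproteins was past the fold between genotypes in quiescent DP-like cells. Selenow had 407, 525 and 355 CPM, the selenocysteine elongation factor Eefsec 105, 121 and 83.4 CPM and Sepsecs 9.83, 8.22 and 7.12 CPM. In cycling over quiescent DP-like cells 6 of the 8 were past the fold lower in each library taken alone. Of all genes, 37.6% were past it in all 3 libraries at once, a stricter count. The medians of the 8 were -0.67, -0.96 and -0.74 beside -0.46, -0.51 and -0.45 for all genes, whereas the Gpx4 ratios were -0.07, -0.31 and 0.06. Among ferroptosis and iron genes 7, 8 and 5 of 9 were higher for p53 AD/- over p53+/-, p53-/- over p53+/- and p53 AD/- over p53-/-, beside 46.4%, 63.7% and 40.6% of all genes. Tfrc, the transferrin receptor, had 20.8, 12.4 and 21.2 CPM and was past the fold lower in p53 AD/- in both of its pairs. The lipid enzyme Acsl4 had 26.0, 21.1 and 32.4 CPM, past the fold lower for p53 AD/- over p53-/-, and the ferritin light chain Ftl1 1427, 1978 and 1552 CPM. Of the p53 targets tied to redox, 3 were measured in quiescent DP-like cells. Gpx1 had 115, 182 and 131 CPM, past the fold for p53 AD/- over p53+/-, and Sesn1 had 74.6, 85.1 and 57.2 CPM. Tigar, the third, had 2.46, 2.84 and 2.65 CPM. In cycling cells 3 of 4 measured were higher for p53-/- over p53+/-, beside 65.8% of all genes, with Tigar and Cdkn1a past the fold higher.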

How the data were processed

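Single-cell RNA of 3 thymus libraries, 1 per genotype by the labels, was analysed. The deposited values were raw UMI counts per gene and barcode, made by the authors with Cell Ranger 4.0.0 on GRCm38, per the submitters' processing notes. Gene annotation, chemistry and strand use are not stated in the sources used. Libraries held 46498800, 27638820 and 54164425 UMIs. Positions came from GENCODE M21, which held 32235 of the genes.

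Cells were clustered in scanpy 1.11.5 (10000 counts per cell, log scale, 2000 variable genes, 30 components, 15 neighbours, Leiden resolution 1). A class name needed 3 markers detected in 5% of cells and an own marker among the top 10 genes. Ties were broken by the number of markers detected, which was chosen after seeing the clusters. TMM factors came from edgeR 4.0.16. Genes at 0 took a floor of 3 UMIs in ratios. Of each list, up to 3 genes with at least 100 UMIs and the largest ratios in quiescent DP-like cells were named, and others only where stated or where a count needed them. Interval coverage was tested on simulated data. The members, lists and rules were chosen with earlier results of these data known. Of 80 list genes, 2 were not found. The closing section gives the effect of 16 alternative settings.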

Additional observations from a re-analysis of the deposited data

How the results depend on the processing

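The 7-gene medians and each gene's ratios in quiescent DP-like cells and in cycling over quiescent DP-like cells were recomputed under 16 alternatives of filtering, doublet removal, clustering, summing, thinning, Malat1 matching, minimum counts and scaling. No ratio past the fold of 1.5 changed sign. That call was lost for Gclc in p53 AD/- over p53-/- in 7 of 13 alternatives (-0.58 to -0.54) and for Gsr in cycling over quiescent DP-like cells of p53 AD/- with cells thinned to 1000 UMIs (0.55), which takes Gsr from the 2 genes higher in all 3 libraries. It was gained in p53 AD/- over p53-/- for Slc7a11 in 4 alternatives (-0.62 to -0.59) and for Gpx4 in 2 (0.61 and 0.63). In cycling over quiescent DP-like cells it was gained for Gss in each library and for Gclc in each library under at least 1 alternative, and under TMM for Slc3a2 in p53+/- and p53-/- and for Gpx4 in p53-/-. The mean over cells of CPM moved Slc7a11 there by over 1.5 times in p53+/- and p53-/-, to -1.86 and -2.02. Gclc in p53 AD/- also moved there by over 1.5 times, from -0.49 to between -1.35 and 0.03 over the alternatives. The median over the 7 genes in cycling over quiescent DP-like cells moved most under TMM scaling, to 0.70, 0.58 and 0.90 from 0.21, 0.06 and 0.33. In p53 AD/- it was -0.14 with the highest doublet scores left out, and in p53+/- it was 0.017 with the mean over cells of CPM. In all, 5 of these medians and 72 single-gene values moved by more than their counting interval, beside 82 and 432 that did not, and the cause was not tested. Ratios short of the fold took either sign in at least 1 alternative for Gclm, Gss and Slc3a2 in 2 genotype pairs each and Gsr in 1, and in cycling cells for Gpx4 in 2 libraries and for Gclc and Slc3a2 in p53 AD/-. Ratios of the DN-like, selected and mature SP-like classes were computed under the main settings alone. No paired analysis was possible because each genotype has 1 library, and for the same reason no library could be left out. Depth limits Gss, Gclc, Gclm and Gsr most, with 52 to 268 UMIs per library in quiescent DP-like cells.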
